A study of Mus musculus with 12 samples.

Results

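The comparison described here set the 6 GL261 tumour arrays that received temozolomide against the 6 that did not, with the antibody against PD-1 as a balanced second factor. GL261, a murine glioma line used in hosts with an intact immune system, had been placed into the brain of male C57BL/6 mice aged 8 weeks, per the labels, and the masses were collected on day 16. All 12 of the 12 arrays of the series entered, 3 in each of 4 groups. The Control and Anti-PD-1 groups received no temozolomide, and the TMZ and Combination groups did (30 mg/kg into the peritoneum). The Anti-PD-1 and Combination groups received the antibody by vein at 10 mg/kg, with 2 injections per week. All 4 groups share the same implanted line, host strain, sex and age. The labels give neither the days of dosing nor what the Control animals received, and they do not tie each array to its own animal, so p values measure the spread between these arrays.

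Each of 22180 mouse genes with a single symbol was represented by the probe set with the highest mean signal. Values are log2 RMA signals, so a difference of 1 is a doubling, and arrays have no read depth: their number limits the precision. The main effect of temozolomide is the mean of the TMZ minus Control difference and the Combination minus Anti-PD-1 difference. These simple differences share no array. The interaction is the second less the first, and is above 0 where temozolomide arrays stood relatively higher in the presence of the antibody. The tumours were measured as whole tissue, in which fewer cells of a type and less RNA per cell cannot be told apart, and the table holds no detection calls, so the presence of tumour or brain markers was not tested.

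Temozolomide is an alkylating drug that adds methyl groups to DNA. The lesion at the O6 position of guanine is reversed by the enzyme Mgmt; if it persists, mismatch repair turns it into breaks that engage checkpoint kinases, p53 and arrest before or in mitosis. PD-1 is an inhibitory receptor of T cells, and its ligand, encoded by Cd274, is itself induced by interferon gamma. Tumour cells, microglia and infiltrating macrophages answer interferons with genes for antigen presentation and for guanylate-binding and immunity-related GTPases.

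Of all lists, those of type I interferon, interferon gamma and mitosis genes had the TMZ minus Control medians farthest from 0. The RefSeq promoters (GRCm38.p6) of a pair of cell cycle genes and a pair of interferon genes are printed to show short elements known from such promoters. Each run is the 250 bases before the annotated start, 5′ to 3′ on the gene's strand. Capitals mark TTTGAA (the letters of the cell cycle homology region, either strand) or GAAA followed after any 2 bases by another GAAA (the letters of the interferon-stimulated response element, either strand; overlapping matches are run together). Top2a encodes topoisomerase II alpha, Mki67 the Ki-67 proliferation antigen, Bst2 the antiviral membrane protein tetherin and Irgm1 an immunity-related GTPase. Irgm1 was chosen after its values were seen, and its promoter holds TTTGAA as well. The regions are chr11:99024190-99024439, chr7:135716380-135716629, chr8:71537473-71537722 and chr11:48871421-48871670, all on the minus strand.
Top2a: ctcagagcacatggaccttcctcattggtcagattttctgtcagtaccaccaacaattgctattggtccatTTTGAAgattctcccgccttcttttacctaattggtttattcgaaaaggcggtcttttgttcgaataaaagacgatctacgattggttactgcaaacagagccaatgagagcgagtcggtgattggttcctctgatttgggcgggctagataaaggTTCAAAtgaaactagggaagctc
Mki67: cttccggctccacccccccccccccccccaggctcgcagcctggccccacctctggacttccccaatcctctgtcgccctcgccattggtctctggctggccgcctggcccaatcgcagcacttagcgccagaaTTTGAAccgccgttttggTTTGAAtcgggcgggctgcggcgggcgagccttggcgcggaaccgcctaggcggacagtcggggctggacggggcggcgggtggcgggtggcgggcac
Bst2: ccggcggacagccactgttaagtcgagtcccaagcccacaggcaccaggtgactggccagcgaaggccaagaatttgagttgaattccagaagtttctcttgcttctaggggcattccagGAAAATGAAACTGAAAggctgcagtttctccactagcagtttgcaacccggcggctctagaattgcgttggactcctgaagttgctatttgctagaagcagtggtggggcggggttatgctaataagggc
Irgm1: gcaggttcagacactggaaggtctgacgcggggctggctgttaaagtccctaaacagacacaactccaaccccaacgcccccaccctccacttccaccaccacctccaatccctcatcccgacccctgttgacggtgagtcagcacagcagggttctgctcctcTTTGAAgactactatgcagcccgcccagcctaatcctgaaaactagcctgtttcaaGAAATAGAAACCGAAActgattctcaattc

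In windows of 300 bases that also take in the first 50 bases after the start, TTTGAA stood on either strand in 27 of the 33 promoters found for 31 of the 37 measured mitosis genes (81.8%), against 17.9% of all 32851 promoters. Of the 30 promoters of DNA replication genes, 4 held it (13.3%). CCAAT stood in 26 of the mitosis promoters (78.8%) and 22 of the replication promoters (73.3%), against 37.4% of all. The paired GAAA stood in 8 of 15 promoters of interferon gamma genes (53.3%) and 12 of 21 of type I interferon genes (57.1%), against 3.44% of all. These are letter matches, given as a description.

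Before the results, the arrays that stood apart need naming. On the first principal component Control replicates 1 and 2 lay at -20.1 and -26.4, and Control replicate 3 at -1.28, so the Control group was itself split. On the second component Anti-PD-1 replicate 1 lay at -16.8, with Control replicate 3 next at -8.04. On the third component TMZ replicate 2 lay at 20.9, away from every other array. Results that rest on these arrays are given with and without them.

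No gene passed the threshold for a temozolomide difference common to both settings. With limma and Benjamini-Hochberg adjustment over all genes, 0 of 22180 were called (0%), and the smallest adjusted p was 0.475. The other fits also called 0, except for 9 genes without Control replicate 3. At an unadjusted p under 0.05 there were 1548 genes (6.98%), 650 higher (2.93%) and 898 lower (4.05%). The median standard error of the main effect was 0.07 on the log2 scale and 10 genes differed by more than 1.5-fold. The same table gave 22 called genes without the antibody, in TMZ minus Control (0.0992%; 4 higher, 0.018%, and 18 lower, 0.0812%), and 0 with it, in Combination minus Anti-PD-1 (0%; 1089 at an unadjusted p under 0.05, 4.91%, of which 446 were higher, 2.01%, and 643 lower, 2.9%). Of those 22 genes, 4 had the same sign with the antibody, none of them at an unadjusted p under 0.05. The count of 22 was 363 without Control replicate 3, and 0 to 7 when any other single array was left out, so each call named below in TMZ minus Control rests on the full set of arrays.

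Temozolomide differences without and with the antibody did not run alike over the genes as a whole. They had the same sign in 10374 genes (46.8%). Over all genes their Pearson r was -0.21 and Spearman rho -0.08, as a description over genes, which are not independent replicates. Both reached an unadjusted p under 0.05 with the same sign in 61 genes (0.275%) and with opposite signs in 108 (0.487%). Of the 1283 genes lower without the antibody at that level, 502 were also below 0 with it (39.1%). Of the 1213 that were higher, 527 were also above 0 (43.4%). These counts and correlations use all arrays, with the split Control group, and were not computed with arrays left out.

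**Figure D1:**
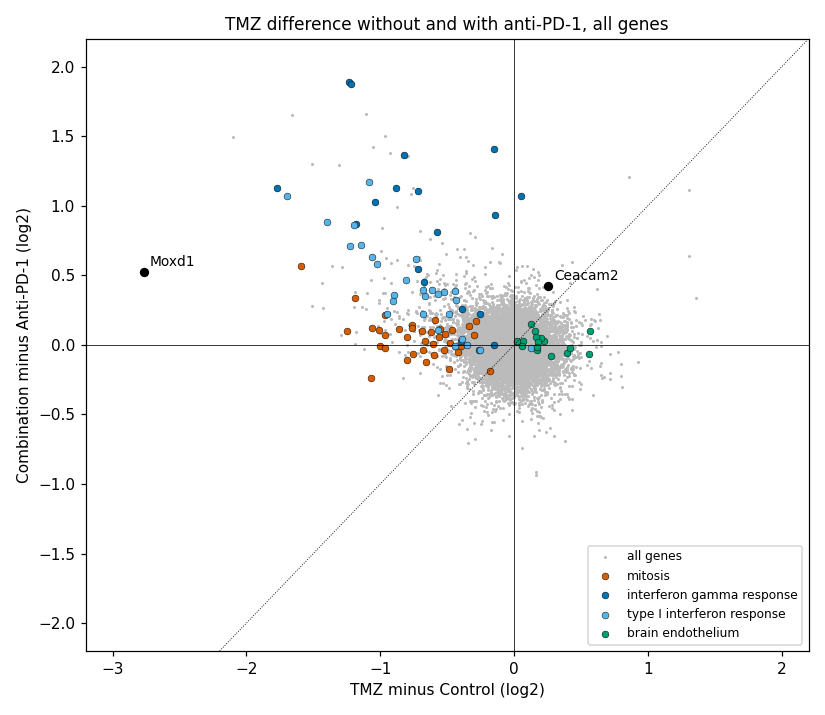
Each point is 1 gene, with its TMZ minus Control difference on the x axis and its Combination minus Anti-PD-1 difference on the y axis, both log2; the dotted line marks equal differences, and coloured points are 4 gene lists. Mitosis genes spread to the left with y values mostly near 0, interferon genes lie to the upper left, endothelial genes to the right, and Ceacam2 is an example of a gene above 0 on both axes.

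Genes whose arrays with and without temozolomide separated in both settings were few, and none passed the threshold. The 6 arrays with temozolomide and the 6 without did not overlap for 48 genes (0.216%), 28 of them higher with temozolomide (0.126%) and 20 lower (0.0902%). Their median signal stood at percentile 39.75 of all genes, and 13 of the 48 were predicted genes, receptors or other classes left unnamed by rule. These counts are small shares of all genes and carry no test, so the genes below, which are among the 10 in each direction with the smallest unadjusted p and the same sign in both settings, are a description of the arrays and not a set shown to respond. The mitosis genes among them are given further on.

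Slc13a4 encodes a sodium-coupled sulfate transporter. It read 6.79, 6.89 and 6.77 on the Control arrays, 7.20, 7.26 and 7.11 on TMZ, 6.88, 6.94 and 6.96 on Anti-PD-1 and 7.28, 7.05 and 7.14 on Combination. All 6 arrays with temozolomide were above all 6 without. The main effect was 0.30 ± 0.05 (SE; 95% confidence interval 0.19 to 0.41), made of 0.37 without and 0.23 with the antibody, and its limma adjusted p was 0.475.

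Ceacam2 encodes an adhesion molecule of the carcinoembryonic antigen family. Control arrays read 5.27, 5.52 and 5.67, TMZ 5.73, 5.68 and 5.82, Anti-PD-1 5.41, 5.47 and 5.30, and Combination 5.80, 5.82 and 5.83. The arms again did not overlap, although Control replicate 3, at 5.67, came close under the lowest TMZ array. The difference was 0.25 without and 0.42 with the antibody, for a main effect of 0.34 ± 0.07 (SE; limma adjusted p = 0.475).

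Of the other genes on the higher side, Spag6l, which encodes a protein of the ciliary central apparatus, differed by 0.25 without and 0.24 with the antibody. Mccc1, a subunit of the carboxylase of leucine breakdown, differed by 0.22 and 0.20. F5, coagulation factor V, differed by 0.18 and 0.53. Hotair, a long non-coding RNA of the HoxC cluster, had a main effect of 0.24, as did Pnma3, Ap5b1 and Tmc4. The signal of Hotair stood at percentile 26.9 of all genes. For Tmc4 the second probe set read -0.06, against 0.24 for the one used, so its probe sets disagreed in sign. Atp13a5, a P-type ATPase, had the smallest p of the higher genes with a main effect of 0.26 ± 0.04 (SE), but it differed by 0.50 without the antibody and 0.02 with it.

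On the lower side, Hmga2 encodes an architectural chromatin protein of embryonic and tumour cells. It read 5.70, 5.61 and 5.53 on Control, 5.18, 5.21 and 4.93 on TMZ, 5.38, 5.22 and 5.61 on Anti-PD-1, and 5.13, 5.24 and 4.97 on Combination. Without the antibody the arrays did not overlap, and with it 1 Anti-PD-1 array, at 5.22, lay below the highest Combination array. The difference was -0.51 without and -0.29 with the antibody, and the main effect was -0.40 ± 0.08 (SE; limma adjusted p = 0.475). Leaving out both Control replicates 1 and 2 gave -0.36.

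Triml1, of the tripartite motif family, read 4.06, 3.97 and 3.78 on Control, 3.62, 3.57 and 3.39 on TMZ, 3.84, 3.82 and 3.88 on Anti-PD-1, and 3.61, 3.43 and 3.66 on Combination. All 6 arrays with temozolomide were below all 6 without, and the main effect was -0.35 ± 0.06 (SE). The arms did not overlap for Gdf7, a ligand of the bone morphogenetic protein family (-0.27), for the homeobox gene Isx (-0.29) or for the serine protease gene Prss55 (-0.28). Signals of these genes were low: Triml1, Gdf7, Isx and Prss55 stood at percentiles 18, 35.7, 29.5 and 18.2 of all genes. Myoz3 differed by -0.31 and -0.35 in the respective settings. The limma adjusted p of the 20 genes of both directions lay between 0.475 and 0.579.

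**Figure D2:**
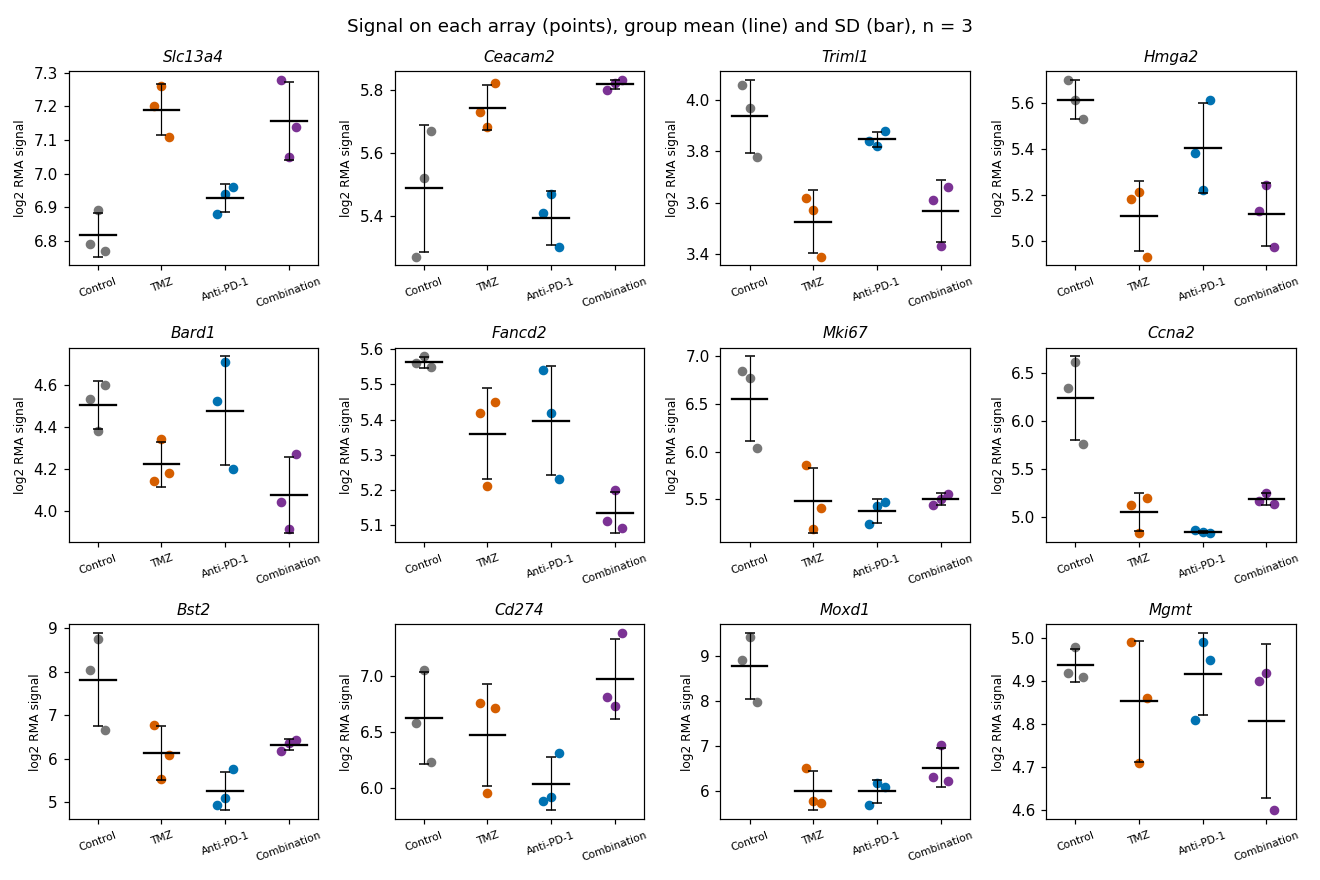
Log2 RMA signal of 12 genes on each of the 12 arrays by group, with the group mean (line) and SD (bar), n = 3; each panel has its own y axis, which does not start at 0. Slc13a4, Ceacam2 and Triml1 separate the groups with temozolomide from those without, whereas for Mki67, Ccna2 and Moxd1 the Control arrays stand above the 9 others.

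Cell cycle genes gave the largest shift of any list in the main effect, and it came from the setting without the antibody. All 37 measured mitosis genes were below 0 in the main effect (49.9% of all genes were), 30 of them at an unadjusted p under 0.05 and 0 past the adjusted threshold, with a median of -0.32 against 0.00019 over all genes. Without the antibody the median was -0.67 and 35 members were lower at an unadjusted p under 0.05 (5.78% of all genes were). With the antibody the median was 0.07, 24 members were above 0 and none was at an unadjusted p under 0.05 in either direction. The interaction was above 0 in 36 members, 33 at an unadjusted p under 0.05 (4.65% of all genes).

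The 4 groups show where the settings parted. The mitosis score, the mean over the list of the log2 value less the gene's mean over 12 arrays, was 0.63, 0.75 and 0.18 on the Control arrays. It was -0.09, -0.26 and -0.22 on TMZ, -0.21, -0.17 and -0.20 on Anti-PD-1 and -0.15, -0.12 and -0.15 on Combination. All 3 Control arrays were above all 9 others, and the 9 others spanned -0.26 to -0.09.

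Mki67 read 6.84, 6.77 and 6.04 on Control, 5.86, 5.19 and 5.41 on TMZ, 5.24, 5.43 and 5.47 on Anti-PD-1, and 5.44, 5.51 and 5.56 on Combination. The groups overlapped everywhere except that Control stood above the rest. The difference was -1.06 without and 0.12 with the antibody, and the main effect was -0.47 ± 0.14 (SE; limma adjusted p = 0.579). It was -0.21 without Control replicates 1 and 2.

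Top2a, whose promoter is printed above with TTTGAA on each strand, read 6.56, 6.78 and 5.63 on Control, 5.03, 4.29 and 4.87 on TMZ, 4.37, 4.45 and 4.56 on Anti-PD-1, and 4.69, 5.29 and 5.11 on Combination. With the antibody all 3 temozolomide arrays were above the 3 without, and without it all 3 were below. The differences were 0.57 and -1.59, and the main effect was -0.51 ± 0.19 (SE), or -0.16 without Control replicates 1 and 2.

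Ccna2, which encodes cyclin A2, fell without the antibody by 1.19 on the log2 scale (limma adjusted p = 0.0402) and differed by 0.34 with it. Its arrays read 6.34, 6.61 and 5.76 on Control, 5.12, 4.83 and 5.20 on TMZ, 4.86, 4.84 and 4.83 on Anti-PD-1, and 5.17, 5.25 and 5.13 on Combination. Spc25, a subunit of the Ndc80 kinetochore complex, fell by 0.53 without the antibody (limma adjusted p = 0.0402) and differed by -0.04 with it. Gtse1, a regulator of G2 and S phase, fell by 0.66 (limma adjusted p = 0.0461) and differed by -0.04. For Kif23, the kinesin of the central spindle, the values were -0.48 and -0.18, and for the mitotic kinase gene Aurka -0.60 and -0.08, neither past the threshold.

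DNA replication and G1/S genes shifted in the same direction and by less, with a main effect median of -0.17. Of 33 measured members, 32 were below 0 in the main effect (49.9% of all genes), 13 at an unadjusted p under 0.05 (4.05% of all genes). The median was -0.30 without and 0.00076 with the antibody. Dtl, the substrate receptor of an S phase ubiquitin ligase, fell by 0.999 without the antibody (limma adjusted p = 0.0402) and differed by 0.08 with it. Uhrf1, a reader of hemimethylated DNA, differed by -0.61 and -0.14 in the respective settings, and Cdc6, the loader of the replicative helicase, by -0.40 and -0.11.

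The cell cycle medians depended on the Control arrays. Without Control replicates 1 and 2 the mitosis median of the main effect was -0.17 with 10 members at an unadjusted p under 0.05, and that of TMZ minus Control was -0.38. Without Control replicate 3 they were -0.40, 33 and -0.82, and 9 genes passed the adjusted threshold for the main effect, all lower (0.0406%): Lgals1, Plk1, AI662270, Ect2, H2ac10, Hmmr, Prc1, Uhrf1 and Ccna2, named after their values were seen. Scores of other lists moved with it. The glioma and neural progenitor list, 23 of 24 measured, scored 0.02 to 0.17 on Control and -0.10 to 0.06 on the other arrays, and the neuron list, 19 of 21 measured, -0.11 to 0.02 on Control and -0.03 to 0.06 elsewhere. Their part in the result was not tested.

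Interferon and antigen presentation genes differed with opposite signs in the absence and the presence of the antibody, and the main effect is the mean of these differences. For the 19 measured interferon gamma genes the median was -0.67 without the antibody, where 18 were below 0 (47.9% of all genes) and 9 at an unadjusted p under 0.05. It was 0.94 with the antibody, where 17 were above 0 (47.8% of all genes) and 12 at an unadjusted p under 0.05 (2.01% of all genes). The main effect median was -0.0076, with 0 members at an unadjusted p under 0.05. The interaction was above 0 in 19 of 19 members (46.2% of all genes) and at an unadjusted p under 0.05 in 16, and 0 passed the adjusted threshold.

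The interferon gamma score ran 0.67, 1.09 and -0.12 on Control, 0.30, -0.49 and -0.15 on TMZ, -1.03, -0.66 and -0.23 on Anti-PD-1, and -0.02, 0.28 and 0.36 on Combination. Without the antibody the groups overlapped, since Control replicate 3 lay below TMZ replicate 1. With the antibody all 3 Combination arrays were above all 3 Anti-PD-1 arrays.

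Cd274, encoding the ligand of PD-1, read 6.58, 7.05 and 6.23 on Control, 6.76, 5.95 and 6.71 on TMZ, 5.88, 5.92 and 6.31 on Anti-PD-1, and 6.81, 6.73 and 7.38 on Combination. The Anti-PD-1 and Combination arrays did not overlap, while Control and TMZ did. The difference was -0.14 without and 0.94 with the antibody. The main effect was 0.40 ± 0.18 (SE; 95% confidence interval -0.0013 to 0.79; limma adjusted p = 0.714), and 0.59 without Control replicates 1 and 2.

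The guanylate-binding protein gene Gbp8 differed by -0.15 and 1.41 in the respective settings. Irgm1, whose printed promoter holds the paired GAAA in overlapping copies close to the start, differed by -1.18 and 0.87 (interaction 2.05, limma adjusted p = 0.199). Socs1, a feedback inhibitor of the pathway, was the member with the smallest main effect p after Cd274, at -0.40 and 0.03. The members with differences within 0.10 of 0 in the presence of the antibody were Socs1, Gbp6 (-0.03) and Ido1 (-0.00086), named after their values were seen.

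Type I interferon genes had the same arrangement. Without the antibody the median was -0.68, and 24 of 28 members were lower at an unadjusted p under 0.05 (5.78% of all genes). With it the median was 0.37, and 25 were above 0 (47.8% of all genes), 10 at an unadjusted p under 0.05 (2.01% of all genes). Their main effect median was -0.17, with 26 members below 0 (49.9% of all genes). Bst2 read 8.05, 8.75 and 6.65 on Control, 6.77, 5.53 and 6.07 on TMZ, 4.92, 5.08 and 5.76 on Anti-PD-1, and 6.17, 6.36 and 6.43 on Combination. Control overlapped TMZ through replicate 3, and Anti-PD-1 did not overlap Combination. Its differences were -1.69 and 1.07, and the main effect of -0.31 ± 0.32 (SE) turned to 0.27 without Control replicates 1 and 2. Mx1, an antiviral GTPase, differed by -0.49 and 0.22.

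The MHC class I list, with peptide transporter and immunoproteasome genes, had medians of -0.38 and 0.44. In 0 of its 16 measured members had the settings the same sign (46.8% of all genes). Tap1, the peptide transporter subunit, differed by -0.98 and 0.84, and Psme2 was the member that ran the other way, at 0.10 and -0.08; both are named after their values were seen. For the MHC class II list the medians were -0.41 and 0.37. H2-DMb1, a chain of the peptide-exchange factor, departed from that: it fell by 0.49 without the antibody (limma adjusted p = 0.0410) and differed by 0.08 with it.

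**Figure D3:**
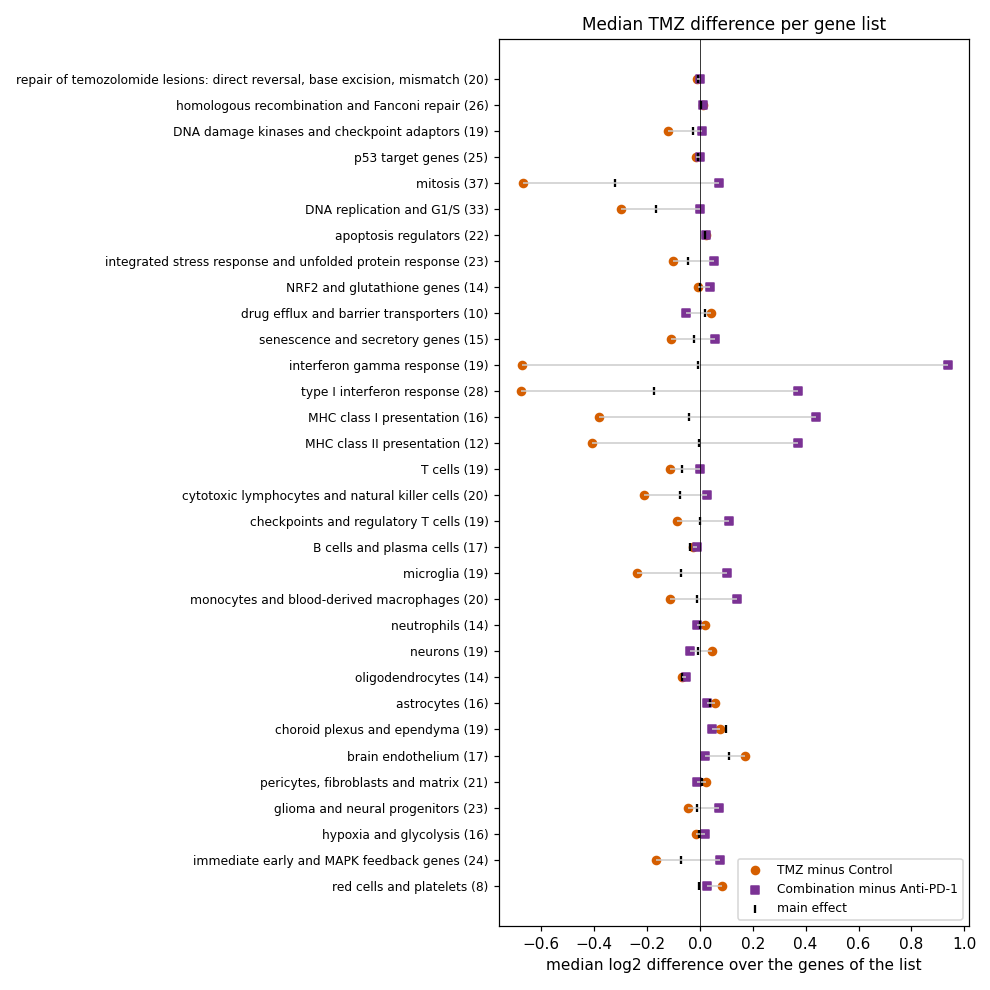
Median log2 difference over the measured genes of each of 32 lists (number measured in brackets) for TMZ minus Control (circles), Combination minus Anti-PD-1 (squares) and the main effect (ticks). The interferon and MHC lists extend to both sides of 0, from -0.68 to 0.94, mitosis and replication mainly to the left, and the lists for lesion repair, homologous recombination and p53 targets lie close to 0.

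Here too the difference without the antibody depended on the Control arrays, which the difference with it does not use. Without Control replicates 1 and 2 the TMZ minus Control median was -0.12 for interferon gamma genes, -0.25 for type I genes and 0.06 for MHC class I genes. The medians of the interaction were 0.77, 0.60 and 0.33, against 1.39, 1.05 and 0.84 on all 12 arrays. The main effect medians were then above 0, at 0.39 for interferon gamma genes (5 members higher at an unadjusted p under 0.05), 0.085 for type I genes and 0.22 for MHC class I genes, against -0.0076, -0.17 and -0.04 on all 12 arrays. Without Control replicate 3 the type I median was -0.29, with 14 members lower at an unadjusted p under 0.05. Leaving out single Anti-PD-1 arrays moved the interferon gamma median with the antibody between 0.76 and 1.07. Myeloid marker scores moved in the same direction: the microglia score was 0.16 ± 0.15 on Control, -0.10 ± 0.19 on TMZ, -0.10 ± 0.08 on Anti-PD-1 and 0.04 ± 0.07 on Combination (SD, n = 3; 19 of 20 genes measured). That of monocytes and blood-derived macrophages was 0.23 ± 0.24, -0.04 ± 0.16, -0.19 ± 0.12 and 0.0012 ± 0.16. Their part in the interferon values was not tested.

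The test of the interaction itself called 1 gene (0.00451%), 3830403N18Rik, of a class the naming rule leaves out and named because it was the only one. It read 3.96, 3.76 and 3.65 on Control, 2.96, 2.74 and 2.77 on TMZ, 2.67, 2.66 and 2.72 on Anti-PD-1, and 3.19, 3.02 and 2.95 on Combination. Control stood above TMZ without overlap, and Combination above Anti-PD-1. The interaction was 1.33 ± 0.13 (SE; limma adjusted p = 0.00909), at a signal on percentile 10.5 of all genes. At an unadjusted p under 0.05 there were 1978 genes (8.92%), 1031 above 0 (4.65%) and 947 below (4.27%).

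The number of genes called depended on single arrays. Without Control replicate 3 the interaction called 198 genes (0.893%), 175 of them above 0 (0.789%), among which were 19 of 37 mitosis genes, 15 of 28 type I interferon genes, 8 of 19 interferon gamma genes and 8 of 16 MHC class I genes. Without Control replicates 1 and 2 it called 0, as it did without TMZ replicate 2 and without Anti-PD-1 replicate 1 or 2. Without TMZ replicate 1 or 3 it called 2.

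Moxd1, a copper-dependent monooxygenase of the dopamine beta-hydroxylase family, had the largest TMZ minus Control difference of any gene. It read 8.91, 9.43 and 7.99 on Control, 6.51, 5.79 and 5.73 on TMZ, 5.70, 6.19 and 6.10 on Anti-PD-1, and 6.31, 7.02 and 6.23 on Combination. The 3 Control arrays were above the 9 others, and Combination lay above Anti-PD-1 without overlap. It fell by 2.77 without the antibody (limma adjusted p = 0.0277) and differed by 0.52 with it. The interaction of 3.29 ± 0.48 (SE) missed the threshold (limma adjusted p = 0.113), passed it without Control replicate 3 at 3.68 (0.00678), and was 2.50 without Control replicates 1 and 2 (0.584). The main effect, -1.12 ± 0.24 (SE), had an adjusted p of 0.578.

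Of the other genes with the smallest interaction p, Car6, a secreted carbonic anhydrase, fell by 0.92 without the antibody (limma adjusted p = 0.0410) and differed by 0.44 with it. Stx11, a syntaxin of lytic granule release, read 4.67, 4.72 and 4.64 on Control, 4.28, 4.22 and 4.35 on TMZ, 4.45, 4.34 and 4.31 on Anti-PD-1, and 4.53, 4.63 and 4.62 on Combination. Control did not overlap TMZ, nor Anti-PD-1 Combination, and the differences were -0.39 and 0.23. Esp38, an exocrine gland peptide gene, differed by -0.30 and 0.39.

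In the opposite direction, Inca1, an inhibitor of cyclin-dependent kinase, rose by 0.61 without the antibody (limma adjusted p = 0.0402) and differed by -0.01 with it. Atp13a5 rose by 0.50 (limma adjusted p = 0.0277) and differed by 0.02. Its Control arrays read 6.15, 6.29 and 6.23, below all 9 others, which ranged from 6.62 to 6.77. Ddit4l, an inhibitor of mTOR signalling, differed by 0.24 and -0.24, so that its main effect was 0.00058 ± 0.05 (SE). The sodium channel gene Scn9a differed by 0.46 and -0.08, and Pou2f3, a transcription factor of tuft cells, by 0.10 and -0.33.

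Genes that repair temozolomide lesions had a main effect median near 0. Mgmt read 4.92, 4.98 and 4.91 on Control, 4.99, 4.71 and 4.86 on TMZ, 4.81, 4.99 and 4.95 on Anti-PD-1, and 4.90, 4.92 and 4.60 on Combination. All groups overlapped, and the main effect was -0.10 ± 0.07 (SE; 95% confidence interval -0.25 to 0.05). The 20 measured members of the direct reversal, base excision and mismatch list had a median of -0.0072. At an unadjusted p under 0.05, 3 were lower (4.05% of all genes): the uracil glycosylase gene Ung and the nuclease genes Fen1 and Exo1, at -0.22, -0.21 and -0.22. For Exo1 the differences were -0.43 without and -0.0013 with the antibody. None of the list was lower at that level without Control replicate 1 or without Combination replicate 3. A second, dimmer probe set of Fen1 read 0.0091. The mismatch repair genes Msh6 and Pms2 were at -0.0073 (95% confidence interval -0.14 to 0.12) and 0.06 (-0.08 to 0.20).

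Homologous recombination and Fanconi genes also had a median near 0 (0.0044 over 26 measured genes), with 13 above and 13 below 0. At an unadjusted p under 0.05, 2 were lower (4.05% of all genes) and 1 higher (2.93% of all genes). So few members do not show a shift of the list. The lower pair, Bard1 and Fancd2, is described because both read lower in both settings. Bard1, the partner of Brca1, read 4.53, 4.38 and 4.60 on Control, 4.14, 4.34 and 4.18 on TMZ, 4.52, 4.71 and 4.20 on Anti-PD-1, and 4.04, 3.91 and 4.27 on Combination. Control and TMZ did not overlap, and 1 Anti-PD-1 array lay among the Combination arrays. The differences were -0.28 and -0.40, and the main effect was -0.34 ± 0.09 (SE; limma adjusted p = 0.579). Without Control replicates 1 and 2 it was -0.39.

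Fancd2, the central Fanconi protein that is ubiquitinated at crosslinks, read 5.56, 5.58 and 5.55 on Control, 5.42, 5.21 and 5.45 on TMZ, 5.54, 5.42 and 5.23 on Anti-PD-1, and 5.11, 5.20 and 5.09 on Combination. Neither setting had overlapping groups. The differences were -0.20 and -0.26, and the main effect was -0.23 ± 0.06 (SE; limma adjusted p = 0.579), -0.22 without Control replicates 1 and 2. Fancf differed by 0.10 in the main effect.

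Of 19 measured genes of damage kinases and checkpoint adaptors, 16 were below 0 in the main effect (49.9% of all genes). At an unadjusted p under 0.05, 3 were lower (4.05% of all genes) and 1 higher (2.93%). The main effect median was -0.025, or 0.022 without Control replicates 1 and 2. It was -0.12 without and 0.0079 with the antibody. Among these genes Tipin, a fork protection factor, differed by -0.26 and -0.16, and Rad17, the loader of the checkpoint clamp, by 0.11 and 0.17. The 25 measured p53 targets had a main effect median of -0.0072, with 1 higher and 0 lower at an unadjusted p under 0.05; the 1 was the bypass polymerase gene Polk (0.11). Cdkn1a, the p53-induced kinase inhibitor p21, was at -0.12 (95% confidence interval -0.31 to 0.07) and Mdm2 at -0.02 (-0.11 to 0.07). For the 10 drug transporters the median was 0.02, and 0 of the 10 were at an unadjusted p under 0.05; Abcb1a was at 0.19 (-0.02 to 0.40) and Abcg2 at 0.03 (-0.14 to 0.19). Abcb1a read 7.92 on TMZ replicate 2 and 7.04 to 7.49 on the 11 others.

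Lymphocyte genes gave no call in the main effect, and their signals were low. The mean level was 4.38 over the T cell list and 4.32 over that of cytotoxic lymphocytes and natural killer cells. The median over all genes was 5.72. With such low signals, small differences do not show that lymphocytes were unchanged. In the list of cytotoxic lymphocytes and natural killer cells 15 of 20 members were below 0 in the main effect (49.9% of all genes). Its main effect median was -0.07, and 6 members were lower at an unadjusted p under 0.05 (4.05% of all genes). The median was -0.21 without the antibody and 0.03 with it, where 12 of 20 were above 0. Without Control replicates 1 and 2 the main effect median was 0.02, and without TMZ replicate 2 it was -0.04. In the T cell list the median was -0.07, with 14 of 19 members below 0, and in the list of B cells and plasma cells -0.04, with 11 of 17 below 0. Prf1, encoding perforin, differed by -0.18 and -0.23 and the CD8 chain gene Cd8b1 by -0.24 and -0.27. Without the antibody the groups overlapped for both genes. Prf1 read 5.62, 5.74 and 5.80 on Control and 5.70, 5.63 and 5.28 on TMZ, where replicate 3 was lowest. Cd8b1 read 5.06, 5.15 and 4.68 on Control and 4.86, 4.63 and 4.68 on TMZ, so Control replicate 3 lay among the TMZ arrays. With the antibody Anti-PD-1 and Combination did not overlap for either gene, and neither gene was called. Klra9 (-0.51 and 0.02) and Cxcr6 (-0.54 and -0.08) differed mainly without the antibody. Cd8a was at -0.06 (95% confidence interval -0.21 to 0.09), Gzmb at -0.19 (-0.54 to 0.16), Ifng at -0.03 (-0.16 to 0.10), Pdcd1 at -0.05 (-0.32 to 0.21) and Foxp3 at 0.03 (-0.24 to 0.29). The checkpoint gene Ctla4 differed by 0.39 and 0.14.

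The labels do not state how much surrounding brain each mass held. All 17 measured endothelial genes were above 0 in the main effect, with a median of 0.11 (49.9% of all genes were below 0). Of the 17, 1 member, the organic anion transporter gene Slco1a4, was higher at an unadjusted p under 0.05 (2.93% of all genes). Members of a list are not independent of each other. The median was 0.17 without and 0.02 with the antibody. The endothelial score was 0.32 on TMZ replicate 2, -0.02 and 0.02 on the other TMZ arrays, -0.15 to -0.09 on Control and -0.05 to 0.03 on the 6 arrays with the antibody. Without TMZ replicate 2 the median of TMZ minus Control was 0.06 and that of the main effect 0.07, with 0 members at an unadjusted p under 0.05.

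Choroid plexus and ependymal genes had a main effect median of 0.10, with 13 of 19 above 0 (49.9% of all genes were below 0). The ciliary genes Dynlrb2 and Rsph1 were at 0.28 and 0.16. The score of the list was 0.21 on TMZ replicate 1 and 0.10 on Combination replicate 3, and -0.09 to 0.06 on the 10 others. F5, named above among the higher genes, also read highest on these arrays (6.98 and 7.23), and a link was not tested. All 14 measured oligodendrocyte genes were below 0 (49.9% of all genes), with a median of -0.07 and 0 members at an unadjusted p under 0.05. Neuron genes had a median of -0.0057 and astrocyte genes 0.04, where the transcription factor gene Sox9 and the connexin gene Gjb6 were higher at an unadjusted p under 0.05 (0.13 and 0.11). Microglia genes were below 0 in 18 of 19 members, with a median of -0.07 that was 0.015 without Control replicates 1 and 2 and -0.015 without TMZ replicate 2, and P2ry12 was at -0.02 (95% confidence interval -0.16 to 0.12).

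**Figure D4:**
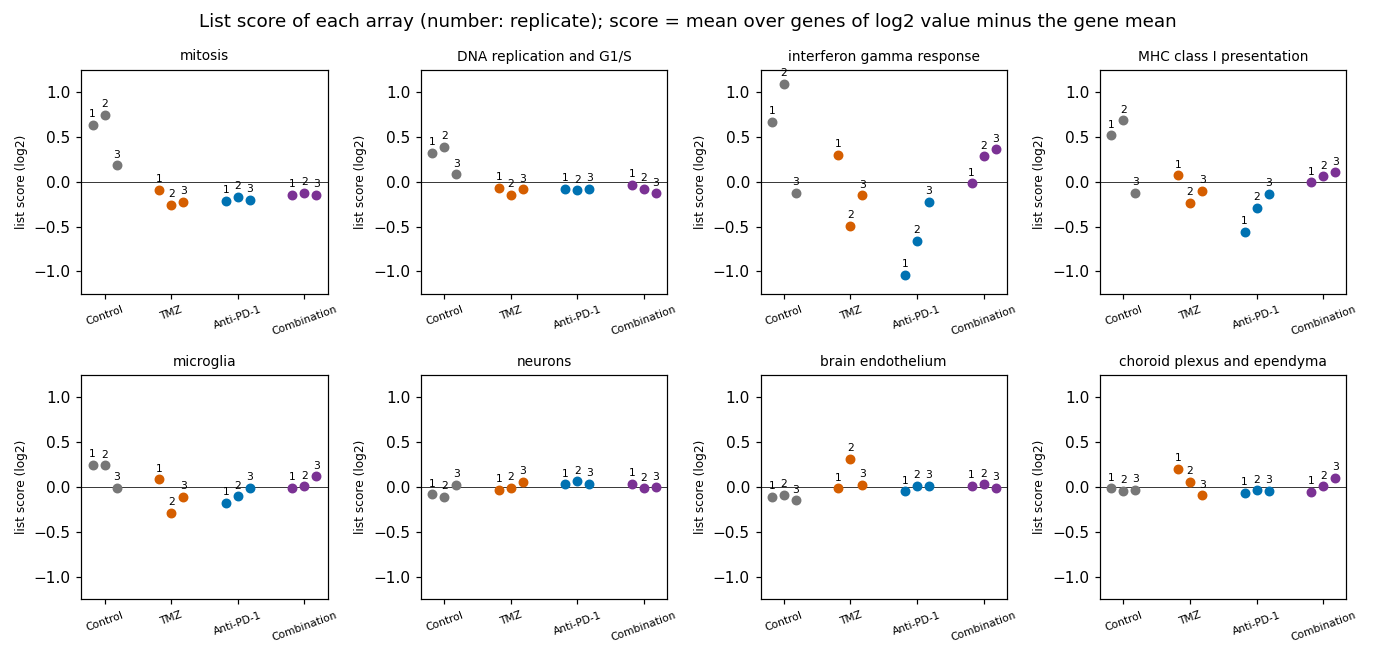
Scores of 8 gene lists on each array, as the mean over the list of the log2 value less the gene's mean over 12 arrays; numbers beside the points are replicate names, which have no order. Control replicates 1 and 2 are highest for mitosis and interferon gamma genes, TMZ replicate 2 is highest for endothelium at 0.32, and neuron scores stay between -0.11 and 0.06.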

How the data were processed

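The deposited values are log2 RMA signals of 41345 probe sets on 12 Affymetrix arrays; per the submitters' processing notes the authors made them with RMA in Affymetrix Expression Console, version not stated. RMA normalises the arrays to a common distribution, so only changes relative to the other genes are seen. The platform table named 1 symbol for 23521 probe sets, several for 1814, and did not list 16010. Of the first, 23328 were matched by gene number, which changed 0 symbols. No brightness filter was used. limma 3.58.1 in R 4.3.3 fitted a mean per group (8 residual degrees of freedom, eBayes, two-sided), with adjustment by Benjamini-Hochberg over 22180 genes and a threshold of 0.05. The fit was tested on simulated data. Of the 32 gene lists 624 of 690 entries were measured.

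Members, lists and rules were chosen with earlier results of these data known. Named genes were, per direction, the 10 with the smallest main effect p and the same sign in both settings, 5 for the interaction, 3 per list, and 23 fixed genes (19 measured). Same-numbered arrays did not deviate together (1 of 18 pairs above a correlation of 0.1), so replicate numbers do not pair arrays. No arrays were duplicates. Alternatives are given at the end.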

Additional observations from a re-analysis of the deposited data

Results flagged for a closer look

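Dixon's criterion for 1 array standing away from the rest of its arm was applied to 124 groups of 6 values, and 7 met it; chance alone gives about 1 in 20. TMZ replicate 2 accounts for 4 of them. Among the arrays with temozolomide it read 4.83 for Ccna2, where the nearest array read 5.12. Its MHC class II score was -0.58, next to -0.04. Its brain endothelium score was 0.32, next to 0.03, and its hypoxia and glycolysis score was 0.079, next to 0.014. Among the arrays without temozolomide, Control replicate 3 read 4.05 for Hotair (nearest 4.19) and Anti-PD-1 replicate 3 read 7.09 for Mccc1 (nearest 6.96). The score of B cells and plasma cells was 0.051 on Control replicate 2 (nearest 0.014). The temozolomide difference of 3830403N18Rik itself differed with and without the antibody, by 1.33 (limma adjusted p = 0.00909).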

How the results depend on the processing

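The main effect called 0 genes under every alternative run except without Control replicate 3, so leaving out single arrays gave 0 to 9. Combination minus Anti-PD-1 called 0 throughout. The interaction called 12 genes with a variance trend, 0 with all probe sets, 0 among genes above the median level, 0 without Control replicates 1 and 2 (chosen after seeing the data), and 0 to 198 when single arrays were left out. TMZ minus Control called 113 with a variance trend, 38 with array weights, 4 with a replicate block, 1 with all probe sets, 14 among genes above the median level, 1 with a brain covariate, 0 without Control replicates 1 and 2, and 0 to 363 with single arrays left out. With the replicate block, which does not reflect a pairing, the main effect called 0 and the interaction 1. The causes were not tested. With the brain covariate Msh6 was at 0.0062. Without Control replicates 1 and 2 these main effects changed sign: Cdkn1a 0.035, Gzmb 0.049, Bst2 0.27, Pms2 -0.060, P2ry12 0.024, Msh6 0.035, Psme1 0.071, H2-M3 0.0088, Psmb10 0.10, Hmox1 0.052 and Timp1 0.0031. Main effects that changed sign when single arrays were left out ranged from -0.063 to 0.017 for Ifng, -0.12 to 0.042 for Pdcd1, -0.039 to 0.069 for Abcg2, -0.067 to 0.023 for P2ry12, -0.028 to 0.13 for Foxp3 and -0.044 to 0.016 for Msh6.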

Other observations

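The remaining lists had 0 members past the threshold in the main effect. The immediate early and MAPK feedback list had a median of -0.07, with 18 of 24 members below 0 (49.9% of all genes). Ccn1, a matricellular protein gene, fell by 0.73 in TMZ minus Control (limma adjusted p = 0.0461) and differed by 0.24 in Combination minus Anti-PD-1. The feedback inhibitor gene Spry1 differed by -0.29 and -0.09. In the integrated stress response list 17 of 23 members were below 0 (median -0.04, which was 0.03 without Control replicates 1 and 2 and ranged from -0.07 to -0.0066 when single arrays were left out); the mitochondrial folate enzyme gene Mthfd2 differed by -0.45 and -0.01. Larger main effects, none past the threshold, were those of the inhibitor gene Timp1 (-1.14 and 0.27, main effect -0.43), the monocyte and endothelial surface gene Ly6c1 (-0.25 and -0.57, -0.41), the platelet chemokine gene Ppbp (0.57 and 0.15, 0.36) and the neutrophil gene Retnlg (0.40 and 0.16, 0.28). Ppbp and Retnlg read highest on TMZ replicate 2, at 5.39 and 3.86, and at most 4.47 and 3.48 on the other arrays. Their main effects went as low as 0.19 and 0.17 when single arrays were left out.

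Vegfa, the main endothelial growth factor gene, read alike in both settings. It was at 7.85, 7.83 and 7.72 on Control, 7.87, 8.18 and 8.00 on TMZ, 7.85, 7.89 and 7.89 on Anti-PD-1, and 7.98, 8.22 and 7.98 on Combination. The lowest TMZ array lay below the highest Anti-PD-1 array, so the arms overlapped. The differences were 0.21 and 0.19, with a main effect of 0.20 ± 0.06 (SE; limma adjusted p = 0.594). The apoptosis and NRF2 lists had medians of 0.02 and 0.00043, with 0 and 1 members at an unadjusted p under 0.05.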
